A study of Homo sapiens with 24 samples.

Results

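The genes described here encode 10 antioxidant enzymes, the superoxide dismutases SOD1, SOD2 and SOD3, the catalase CAT and the peroxiredoxins PRDX1 to PRDX6. They were chosen by name, and their probes were found through the RefSeq accession that the array files give for each spot. This gave 12 probes on 30 spots for the 10 genes, out of 21240 genes tested. Superoxide dismutases convert superoxide, which a blocked respiratory chain releases, to hydrogen peroxide. Catalase and the peroxiredoxins then break hydrogen peroxide down, catalase mainly in peroxisomes and the peroxiredoxins with a reactive cysteine. In most peroxiredoxins the thioredoxin system reduces this cysteine again. Dopaminergic neurons also make hydrogen peroxide when they oxidize dopamine, and loss of these neurons underlies Parkinson's disease.

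The samples were 3D aggregates of LUHMES cells, a single human mesencephalic cell line that is kept dividing by a tetracycline-controlled v-myc gene and differentiates into dopaminergic-like neurons when tetracycline is added. All groups were differentiated on a gyratory shaker in medium with cAMP, GDNF, tetracycline and N2. Rotenone, an inhibitor of respiratory complex I, was given on day 7 at 50 nM for 12 h, 50 nM for 24 h or 100 nM for 24 h, and the vehicle control received the DMSO that accompanies 100 nM rotenone. Aggregates were harvested on day 8, directly after exposure, or on day 15, after the rotenone had been washed out and 7 more days had passed, which gives 8 groups of 3 samples. The labels give the samples of a group a replicate number and do not say that they came from separate cultures, so that p values measure only the spread between these samples, which may be technical. The 12 h exposure had no DMSO group of its own and was compared with the DMSO group of its day.

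RNA was hybridized to 24 single-color Agilent arrays on 3 slides. Each slide carried every group, and the replicate number in the labels is the slide. Between 50.9% and 82.4% of spots were well above background, a mark that the scanner software gives by its own test of spot against background. The labels describe slide 1 as a repeated slide that needs batch correction. On every slide the day 8 groups lay in the first row of arrays and the day 15 groups in the second, in a fixed order, so that day and row cannot be told apart. The scan of day 15 DMSO replicate 1 is named for 12 h without DMSO, while its label places it in the DMSO group, and the enzyme calls between the days in DMSO are also given without it. On day 15 replicate 3 of 100 nM deviated most from its group mean over all genes, where the SD of log2 deviations was 0.45, and it was 0.20 to 0.31 on the remaining arrays.

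All 6 neuronal markers listed, MAP2 and SNAP25 among them, were well above background on 24 of 24 arrays, as was TH, the rate-limiting enzyme of dopamine synthesis. SLC18A2, the vesicular monoamine transporter, was well above background on 3 of 24 arrays. None of the 5 astrocyte markers was measured on every array, and GFAP was well above background on 1 of 24. Some markers of other cells also gave signal. The 3 oligodendrocyte markers tested and the progenitor genes NES and CCNB1 were well above background on 24 of 24 arrays. Of the microglial genes tested, TYROBP was so on 23 arrays, CSF1R on 11, CX3CR1 on 4 and P2RY12 on 1. In DMSO on day 8 TYROBP was dim, at a mean log2 signal of 5.33, as were the oligodendrocyte markers MBP (5.50) and MOG (5.18), while OLIG1 was at 12.59. Where fewer cells of a type or less RNA per cell would give the same signal, these bulk samples cannot tell them apart.

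The probes of 9 of the 10 enzymes were well above background on 24 of 24 arrays, and 0 of their values were saturated. The exception was SOD3, the secreted superoxide dismutase, which was well above background on 11 of 24 arrays. It was measured on 1 of 3 arrays in each day 8 group, on 2 of 3 in DMSO on day 15, on 3 of 3 after 50 nM for 24 h and on 1 of 3 in the remaining day 15 groups. No fold change is therefore given for SOD3. Between replicates the 9 measured enzymes had a residual SD on the log2 scale from 0.09 for SOD1, PRDX5 and PRDX6 to 0.18 for PRDX2, below the median of 0.22 over all genes, while SOD3 had 0.32.

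**Figure D1:**
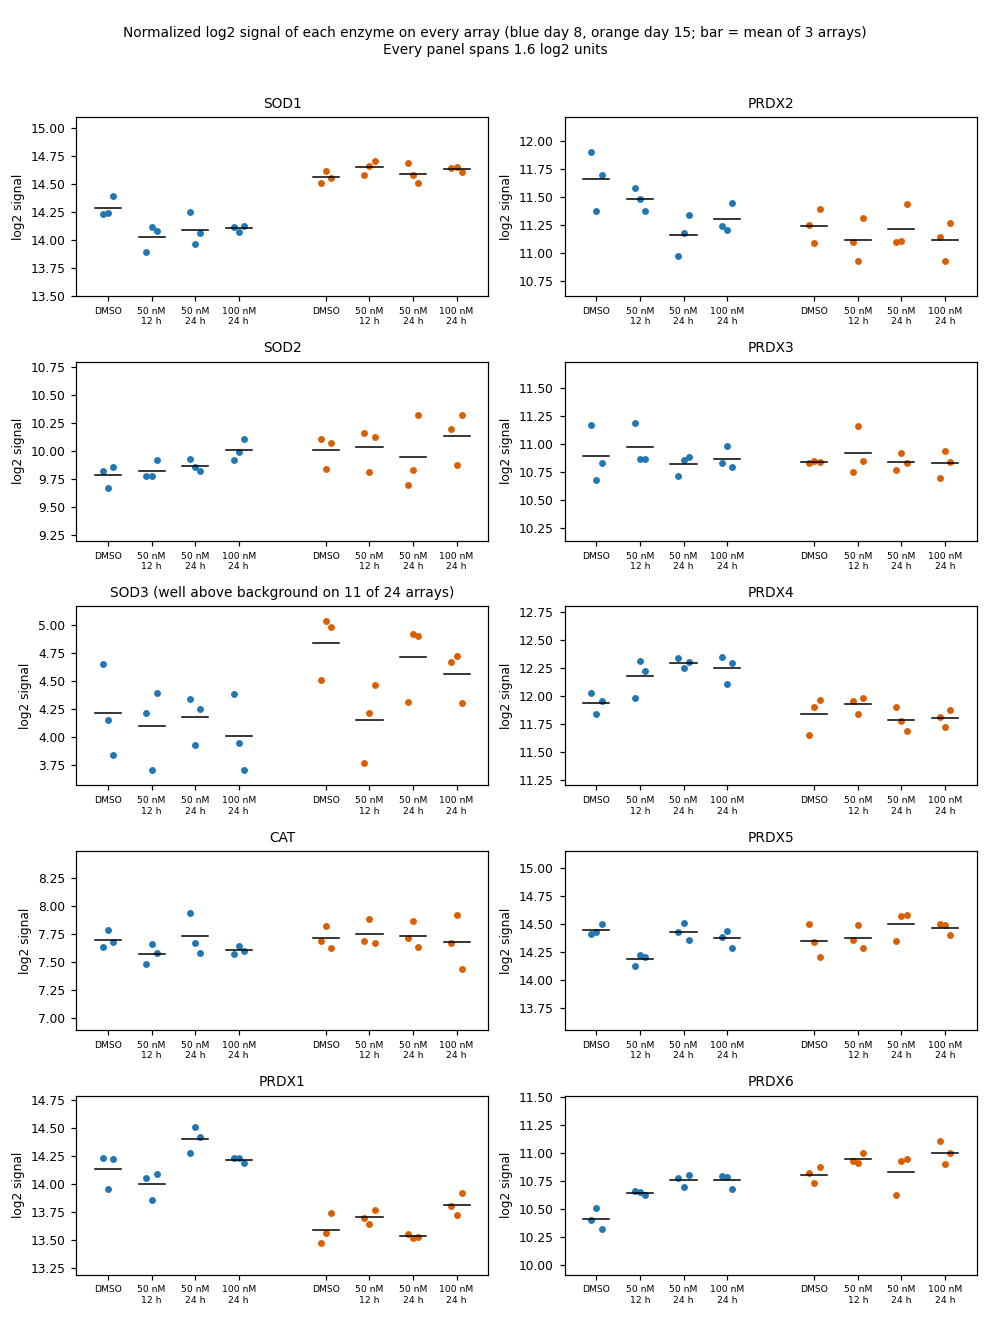
Normalized log2 signal of the 10 enzymes on each of the 24 arrays, by treatment, with day 8 in blue and day 15 in orange, and a bar for the mean of 3 arrays. All 12 SOD1 arrays of day 15 lie at 14.51 or higher and all 12 of day 8 at 14.39 or lower, while CAT stays between 7.44 and 7.94.

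The first question was whether acute rotenone exposure moves these genes. With 100 nM rotenone for 24 h on day 8, only PRDX6 passed the test, defined as a limma p adjusted by Benjamini-Hochberg over all genes that is below 0.05. That is 1 of 10 enzymes, where 9.48% of all genes passed, a share near that of the array as a whole. At 50 nM for 24 h, 3 of 10 passed, PRDX4 and PRDX6 higher and PRDX2 lower, against 8.02% of all genes, and with so few genes no excess over that share was tested. After 12 h of 50 nM, 0 of 10 passed, against 5.52% of all genes. At an unadjusted p below 0.05, 4 of 10 passed there (SOD1, PRDX4, PRDX5 and PRDX6), against 16.8% of all genes. None of the enzymes called on day 8 changed more than 1.5-fold, a size that 3.45% of genes reached together with the test at 100 nM and 2.8% at 50 nM for 24 h. The median log2 fold change of the enzymes was -0.05, 0.01 and -0.12 in the same order of exposures, beside -0.02, -0.02 and -0.01 over all genes.

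PRDX6, the peroxiredoxin with a single reactive cysteine, which also reduces phospholipid peroxides, had normalized log2 signals of 10.40, 10.51 and 10.32 in DMSO on day 8. With 100 nM rotenone they were 10.80, 10.79 and 10.68, with 50 nM for 24 h 10.78, 10.70 and 10.81, and with 50 nM for 12 h 10.66, 10.65 and 10.63. All 9 rotenone arrays lay above all 3 DMSO arrays. The log2 fold change was 0.35 with 100 nM (SE 0.0885, 1.27-fold, limma adjusted p = 0.016) and 0.35 with 50 nM for 24 h (SE 0.0885, adjusted p = 0.018). After 12 h it was 0.23, which did not pass (adjusted p = 0.15). Within slides 1, 2 and 3 the difference with 100 nM was 0.40, 0.28 and 0.36. The 100 nM call was lost without DMSO replicate 1 (adjusted p = 0.054) or 3 (0.080) and without 100 nM replicate 1 (0.071) or 2 (0.058). The call at 50 nM for 24 h was lost without DMSO replicate 1 (0.059) or 3 (0.086) and without replicate 1 (0.062) or 3 (0.073) of its own group.

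PRDX4, the peroxiredoxin of the endoplasmic reticulum, was at 12.03, 11.84 and 11.96 in DMSO and at 12.34, 12.25 and 12.31 with 50 nM for 24 h. All 3 rotenone arrays were above the DMSO arrays. The log2 signal rose by 0.36, with SE 0.103 and an adjusted p of 0.039. With the slide as a replicate block the value was 0.36 with an adjusted p of 0.053, and leaving out any 1 of the 6 arrays also lost the call (adjusted p between 0.056 and 0.16). With 100 nM the signals of 12.35, 12.11 and 12.30 were likewise above DMSO, with a log2 fold change of 0.31 that did not pass (SE 0.103, adjusted p = 0.068). It passed once 100 nM replicate 2 was left out (0.38, adjusted p = 0.047).

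PRDX2, a cytosolic peroxiredoxin that is abundant in neurons, went the other way. It was at 11.90, 11.38 and 11.70 in DMSO and at 10.97, 11.18 and 11.34 with 50 nM for 24 h, so that the groups did not overlap. The log2 signal fell by 0.49, with SE 0.146 and an adjusted p of 0.044. Slide 1 gave a difference of -0.86, slide 2 one of -0.17 and slide 3 one of -0.35. Without DMSO replicate 1 the log2 fold change was -0.38 and the adjusted p 0.21. The call was also lost without DMSO replicate 3 (0.13) and without replicate 1 (0.21) or 2 (0.094) of the rotenone group. With 100 nM the signals of 11.24, 11.21 and 11.45 overlapped with DMSO, and the log2 fold change of -0.36 did not pass (adjusted p = 0.15). These 4 calls of day 8 were all lost without batch correction, with slides 2 and 3 only, and when arrays of other groups were left out of the fit. PRDX2 also missed the threshold when arrays were scaled to their 75th percentile (adjusted p = 0.077).

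PRDX2 and PRDX4 moved in opposite directions under the same exposure, and the stretch before the start of each gene is shown with the motifs found there. The sequences are from RefSeq (GRCh38.p14), whose promoter table held 7 of the 10 genes in 11 windows and not SOD1, PRDX1 or PRDX6. Each line gives the 250 bases before the start, 5′ to 3′ in the direction of the gene. Capitals mark the GC box, GGGCGG on either strand, and the E box, CACGTG, which reads the same on both strands.
PRDX2 (chr19:12801801-12802050, minus strand): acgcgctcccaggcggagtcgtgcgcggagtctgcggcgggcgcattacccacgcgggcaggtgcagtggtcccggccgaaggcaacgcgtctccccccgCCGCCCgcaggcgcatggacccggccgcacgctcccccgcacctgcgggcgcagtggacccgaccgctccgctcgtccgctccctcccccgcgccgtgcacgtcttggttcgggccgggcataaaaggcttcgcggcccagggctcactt
PRDX4 (chrX:23667243-23667492, plus strand): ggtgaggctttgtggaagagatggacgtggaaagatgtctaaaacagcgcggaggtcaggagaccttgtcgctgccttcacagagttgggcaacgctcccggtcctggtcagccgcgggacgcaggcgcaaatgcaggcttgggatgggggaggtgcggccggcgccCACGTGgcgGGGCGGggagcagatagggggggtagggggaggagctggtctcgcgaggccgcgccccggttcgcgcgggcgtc
The window of PRDX2 held 1 GC box and no E box, and that of PRDX4 held 1 GC box and 1 E box. A GC box was in 10 of the 11 windows of the enzymes and in 42.6% of all 35116 windows of this length. An E box was in 2 of the 11 and in 6.34% of all windows. Among the enzymes an E box was found for PRDX3 and PRDX4. The core of the antioxidant response element, TGACNNNGC on either strand, was in 0 of the 11 windows and in 10.9% of all windows. A match describes the letters and shows no binding, and no match says nothing of sites outside the window.

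The dismutases and catalase did not pass the test with any exposure on day 8. SOD1, the copper and zinc dismutase of the cytosol, was at 14.23, 14.24 and 14.39 in DMSO, at 14.11, 14.07 and 14.12 with 100 nM and at 13.89, 14.11 and 14.08 with 50 nM for 12 h. In both cases the rotenone arrays lay below DMSO. The log2 fold changes were -0.19 with 100 nM (95% interval -0.36 to -0.01, adjusted p = 0.21), -0.19 with 50 nM for 24 h (-0.37 to -0.02, adjusted p = 0.20) and -0.26 after 12 h (-0.43 to -0.08, adjusted p = 0.090). SOD2, the manganese dismutase of the mitochondrial matrix, was at 9.82, 9.67 and 9.85 in DMSO and at 9.92, 9.99 and 10.10 with 100 nM. Its arrays did not overlap, and the log2 fold change was 0.22 (95% interval -0.08 to 0.52, adjusted p = 0.43). CAT was at 7.63, 7.78 and 7.68 in DMSO and at 7.57, 7.64 and 7.60 with 100 nM, which overlap (log2 fold change -0.09, interval -0.34 to 0.15, adjusted p = 0.76).

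PRDX3, the peroxiredoxin of mitochondria, was the enzyme whose groups differed least. With 100 nM its log2 fold change was -0.03 (interval -0.30 to 0.24, adjusted p = 0.95), and with the other exposures of day 8 it was -0.08 and 0.08. Its slides disagreed, with -0.37 on slide 1 and 0.31 on slide 2 at 100 nM. PRDX5, which is found in mitochondria, peroxisomes and cytosol, had log2 fold changes of -0.07 with 100 nM and -0.01 with 50 nM for 24 h. After 12 h its arrays at 14.13, 14.23 and 14.21 were below the DMSO arrays at 14.41, 14.43 and 14.50, with a log2 fold change of -0.25 that did not pass (interval -0.44 to -0.07, adjusted p = 0.12). PRDX1, a cytosolic peroxiredoxin induced by oxidants in many cells, was at 14.23, 13.96 and 14.22 in DMSO and at 14.28, 14.51 and 14.42 with 50 nM for 24 h, above DMSO on every array. The log2 fold change of 0.27 did not pass (SE 0.0961, adjusted p = 0.10), but did when arrays were scaled to the 75th percentile of their own signal, where it was 0.49 (adjusted p = 0.011), and also with an offset of 50 (0.047), the brightest probe (0.019) or the authors' values (0.039). The 3 SOD3 arrays overlapped between DMSO and each exposure.

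**Figure D2:**
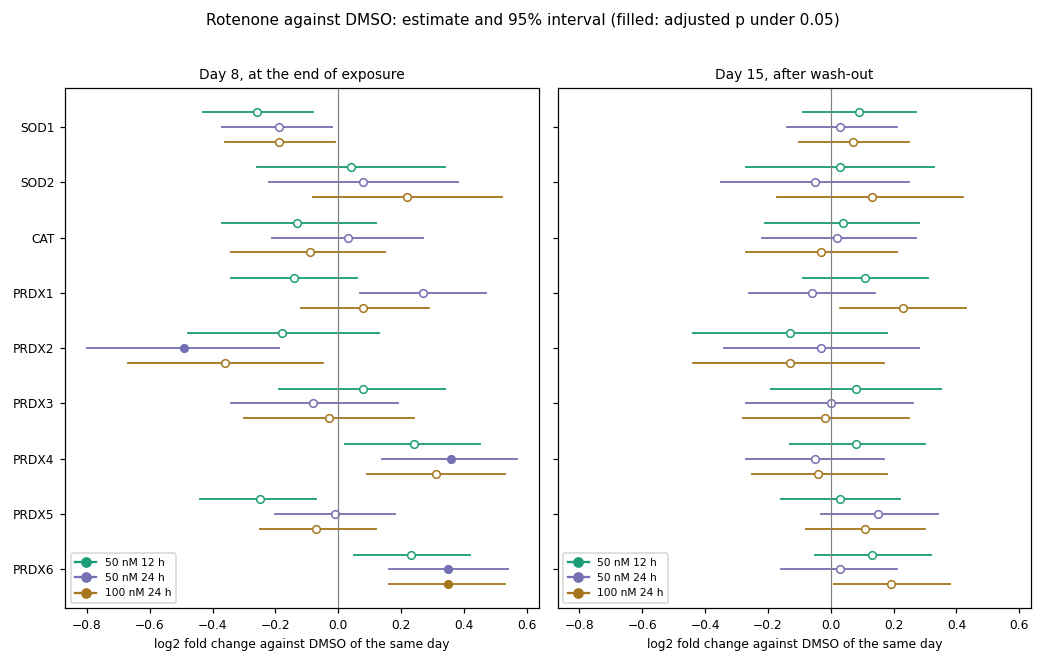
Log2 fold change of each rotenone exposure against DMSO of the same day for 9 enzymes, with SOD3 left out for want of signal. Points are limma estimates, lines 95% intervals, and filled points passed an adjusted p of 0.05. PRDX6 with 100 nM (0.35) and PRDX2, PRDX4 and PRDX6 with 50 nM for 24 h are filled on day 8, and no point is filled on day 15.

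Dose and time were compared directly on day 8. Between 100 nM and 50 nM for 24 h, 0 of 10 enzymes passed, where 0% of all genes did, and 0 of 10 had an unadjusted limma p below 0.05, against 4.17% of genes. For PRDX6 the difference was 0.00 (95% interval -0.19 to 0.18), for PRDX4 -0.05 (-0.26 to 0.17) and for PRDX2 0.13 (-0.17 to 0.44). These intervals bound the effect of dose and do not show that the doses act alike. Between 24 h and 12 h of 50 nM, 0 of 10 passed, where 0.537% of genes did, and 3 of 10 had an unadjusted p below 0.05, against 10.9% of genes.

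The enzyme with the smallest p for time was PRDX1. It was at 14.05, 13.86 and 14.09 after 12 h and at 14.28, 14.51 and 14.42 after 24 h, so that the arrays did not overlap. The log2 fold change was 0.41 (SE 0.0961, 95% interval 0.21 to 0.61, adjusted p = 0.066), and it reached an adjusted p of 0.050, just under the threshold, with the slide as a replicate block. Without replicate 3 of the 12 h group it was 0.45 with an adjusted p of 0.049. PRDX2 was lower after 24 h (log2 fold change -0.32, adjusted p = 0.44) and PRDX5 higher (0.24, adjusted p = 0.29), and both missed the threshold.

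The second question was what remained 7 days after wash-out. On day 15, 0 of 10 enzymes passed with 100 nM, with 50 nM for 24 h or with 50 nM for 12 h, and 0% of all genes did in each comparison. At an unadjusted limma p below 0.05, 2 of 10 enzymes were found with 100 nM (PRDX1 and PRDX6), 0 with 50 nM for 24 h and 1 with 50 nM for 12 h (SOD3), against 7.21%, 3.28% and 3.47% of all genes. PRDX6 was at 10.82, 10.73 and 10.88 in DMSO and at 11.11, 10.90 and 11.00 after 100 nM, above DMSO on every array. The log2 fold change was 0.19 (95% interval 0.01 to 0.38, adjusted p = 0.69). PRDX1 overlapped between the groups, at 13.47, 13.56 and 13.74 in DMSO and 13.80, 13.72 and 13.92 after 100 nM (log2 fold change 0.23, interval 0.03 to 0.43, adjusted p = 0.66). SOD3 was lower after 50 nM for 12 h than in DMSO on every array, with 1 of 3 and 2 of 3 arrays well above background. For the remaining enzymes apart from SOD3 the log2 fold changes after 100 nM ran from -0.13 for PRDX2 to 0.13 for SOD2.

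The change in the response to 100 nM from day 8 to day 15 was tested as an interaction. 0 of 10 enzymes passed, against 2.44% of all genes, and 2 of 10 had an unadjusted limma p below 0.05, against 14.4%. They were PRDX4, whose response was lower on day 15 (log2 difference -0.35, SE 0.146, adjusted p = 0.27), and SOD1, whose response was higher (0.26, SE 0.119, adjusted p = 0.33). For PRDX6 the response was 0.35 on day 8 and 0.19 on day 15, and their difference of -0.15 did not pass (95% interval -0.42 to 0.11, adjusted p = 0.65). A loss of the PRDX6 response after wash-out is therefore not shown. For the 50 nM exposures the same difference was computed after the values had been seen. With 50 nM for 24 h it was -0.41 for PRDX4 (adjusted p = 0.18), -0.33 for PRDX1 (0.27), -0.32 for PRDX6 (0.22) and 0.46 for PRDX2 (0.32), and with 50 nM for 12 h it was 0.35 for SOD1 (0.21), none of which passed. All comparisons of one day share their DMSO arrays, so that their values are not independent of each other.

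The largest differences among these genes were between the days. In DMSO, 4 of 10 enzymes passed, SOD1 and PRDX6 higher on day 15 and PRDX1 and PRDX2 lower, against 23.2% of all genes. Among the 15595 genes kept by a filter on spots well above background, 5582 passed. None of the 4 exceeded 1.5-fold, which 12.2% of all genes did. The median log2 fold change of the enzymes was -0.02, beside -0.04 over all genes. PRDX1 was at 14.23, 13.96 and 14.22 on day 8 and at 13.47, 13.56 and 13.74 on day 15, with no overlap. It fell by 0.55 on the log2 scale (SE 0.0961, 0.685-fold, limma adjusted p = 3.3e-04), and within slides the difference was -0.74, -0.39 and -0.47. PRDX6 was at 10.82, 10.73 and 10.88 on day 15, above all 3 arrays of day 8. It rose by 0.40 (SE 0.0885, 1.32-fold, adjusted p = 0.0025). Both calls held when any 1 of the 6 arrays was left out, with an adjusted p of at most 0.0032 for PRDX1 and 0.017 for PRDX6, and both were lost with slides 2 and 3 only (0.10 and 0.063).

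SOD1 and PRDX2 were nearer to the threshold. SOD1 was at 14.51, 14.61 and 14.55 on day 15, above the 3 arrays of day 8. It rose by 0.27 (SE 0.0844, 1.21-fold, adjusted p = 0.024). It missed the threshold without DMSO replicate 1 (0.088) or 2 (0.080) of day 8 and without DMSO replicate 2 (0.085) or 3 (0.050) of day 15. PRDX2 was at 11.25, 11.09 and 11.39 on day 15, where the highest array overlapped with the lowest of day 8. It fell by 0.41 (SE 0.146, 0.75-fold, adjusted p = 0.048). It missed the threshold without DMSO replicate 1 (0.22) or 3 (0.12) of day 8 and without DMSO replicate 1 (0.098) or 2 (0.18) of day 15. Without day 15 DMSO replicate 1, the array whose scan name departs from its label, SOD1, PRDX1 and PRDX6 still passed (0.041, 0.0032 and 0.010). SOD3 had a higher mean signal on day 15 and overlapping arrays, and it was well above background on 1 of 3 and 2 of 3 arrays (adjusted p = 0.081).

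The same comparison was made within each rotenone exposure, a set of tests added after the values had been seen. With 100 nM, 4 of 10 enzymes passed, against 30.6% of all genes, with 50 nM for 24 h 3 of 10, against 28.8%, and with 50 nM for 12 h 3 of 10, against 28.2%. These shares are near those of all genes. SOD1 was higher and PRDX1 lower on day 15 in all 4 treatments. The SOD1 signal ran from 13.89 to 14.39 over the 12 arrays of day 8 and from 14.51 to 14.70 over the 12 arrays of day 15, so that the days did not overlap. Its log2 fold changes were 0.53 with 100 nM (adjusted p = 7.7e-05), 0.50 with 50 nM for 24 h (1.5e-04) and 0.62 with 50 nM for 12 h (1.6e-05), beside 0.27 in DMSO. The 12 h value was the only SOD1 change above 1.5-fold, at 1.54-fold. PRDX1 ran from 13.86 to 14.51 on day 8 and from 13.47 to 13.92 on day 15. Its log2 fold changes were -0.40 with 100 nM (adjusted p = 0.0032), -0.87 with 50 nM for 24 h (1.1e-06) and -0.29 with 50 nM for 12 h (0.027). The last was lost without replicate 1 (0.084) or 3 (0.11) of day 8 and without replicate 1 (0.064) or 2 (0.091) of day 15. PRDX1 with 50 nM for 24 h, at 0.546-fold, was the other change past 1.5-fold, a size that 17.7% of all genes reached with 100 nM, 15.9% with 50 nM for 24 h and 15.3% with 50 nM for 12 h.

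PRDX4 was lower on day 15 after both 24 h exposures. With 100 nM it went from 12.35, 12.11 and 12.30 to 11.82, 11.73 and 11.88, with no overlap, and its log2 signal fell by 0.44, with SE 0.103 and an adjusted p of 0.0027. After 50 nM for 24 h it fell by 0.50 (adjusted p = 0.0010). In DMSO its log2 fold change was -0.10 (adjusted p = 0.57) and after the 12 h exposure -0.25 (0.081). These differences between treatments are the interactions given above, which did not pass. Leaving out any array kept both PRDX4 calls, with an adjusted p of at most 0.018 for 100 nM and 0.0076 for 50 nM. PRDX6 was higher on day 15 with 100 nM (log2 fold change 0.25, adjusted p = 0.042) and with 50 nM for 12 h (0.30, 0.015), but not with 50 nM for 24 h (0.08, 0.58). The 100 nM value passed in 1 of 6 fits that left out an array, that without replicate 2 of day 15, and had an adjusted p of 0.058 with the slide as a replicate block. The 12 h value was lost without replicate 3 of day 15 (0.060). CAT, PRDX3, PRDX5 and SOD2 did not pass between the days in any treatment.

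Scaling mattered for these comparisons. When arrays were scaled to the 75th percentile of their own signal in place of quantile normalization, the change between the days had a median over all genes of 0.15 with 100 nM, 0.06 with 50 nM for 24 h and 0.20 with 50 nM for 12 h, against -0.03, -0.01 and -0.03. SOD1 then changed by 0.32 with 100 nM (adjusted p = 0.096), by 0.21 with 50 nM for 24 h (0.31) and by 0.29 in DMSO (0.17), and these calls were lost, while the 12 h exposure kept a log2 fold change of 0.52. PRDX6 changed by 0.12 with 100 nM (0.42), which is below the median of all genes, by 0.20 with 50 nM for 12 h (0.14), and turned from 0.08 to -0.09 with 50 nM for 24 h. PRDX1 and PRDX4 moved further down, PRDX1 to -0.63, -1.12 and -0.38 and PRDX4 to -0.61, -0.71 and -0.36 in the same order of exposures.

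**Figure D3:**
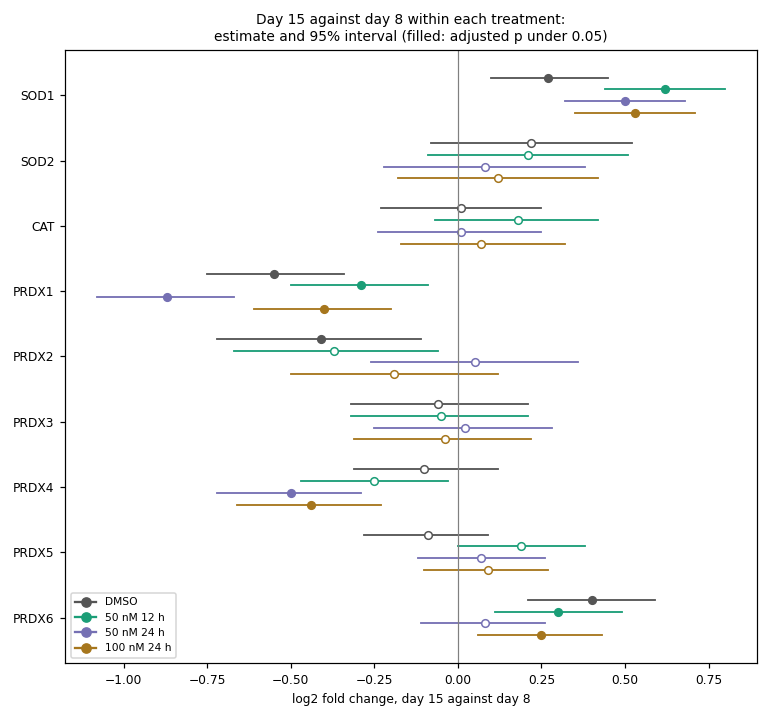
Log2 fold change of day 15 against day 8 within each treatment for 9 enzymes, SOD3 left out, with limma estimates as points, 95% intervals as lines and filled points for an adjusted p below 0.05. SOD1 is filled and positive and PRDX1 filled and negative in all 4 treatments, while PRDX4 is filled after both 24 h exposures (-0.44 and -0.50) and not in DMSO (-0.10).

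PRDX1 and PRDX6 each had 2 probes, whose signals are not compared with each other. Both PRDX1 probes were lower on day 15 in DMSO, by -0.53 for A_23_P11995 (probe-level limma adjusted p = 0.0091), the mean of 10 spots, and by -0.57 for A_33_P3377199 (0.0019). For 24 h against 12 h of 50 nM they gave 0.28 (adjusted p = 0.63) and 0.54 (0.075). With 100 nM on day 8 the PRDX6 probe A_21_P0012646 rose by 0.42 (adjusted p = 0.023), while A_23_P983 had a log2 fold change of 0.27 that did not pass (0.18). Between the days in DMSO they gave 0.41 and 0.39, and with 100 nM 0.14 (0.39) and 0.35 (0.021). With the brightest probe of a gene in place of the mean, the PRDX6 change with 100 nM on day 8 was 0.27 and missed the threshold (adjusted p = 0.066). The accession of both probes is the same, and which transcript each reads was not tested. The 10 spots of the PRDX1 probe had a median SD of 0.15 on an array, and those of the CAT probe 0.14. The residual SD between replicates was 0.11 for PRDX1 and 0.14 for CAT. The former is the SD of single spots and the latter that of gene values that average them, so they are not compared.

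**Figure D4:**
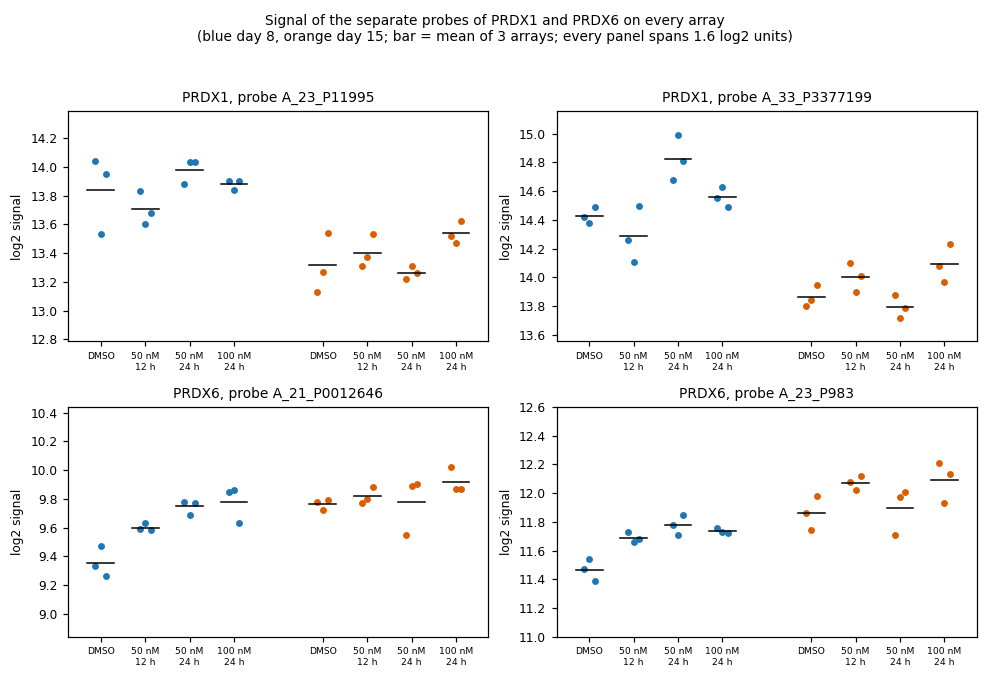
Log2 signal of each probe of PRDX1 and PRDX6 on every array, with day 8 in blue, day 15 in orange and bars for the mean of 3 arrays. Both PRDX1 probes are lower on day 15 in every treatment, and both PRDX6 probes have their lowest group in DMSO on day 8.

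Across the 8 groups the enzymes did not move as 1 block. Over the 8 group means, which share arrays and normalization, PRDX2 was opposed to PRDX6 (Pearson r = -0.95) and SOD1 to PRDX4 (-0.912), while SOD2 went with PRDX6 (0.893) and PRDX1 with PRDX4 (0.855). Among 12851 genes measured well above background on 24 of 24 arrays, those most like PRDX6 over the 8 group means were CUTC (r = 0.992), TMEM268 and BTN3A1 (both 0.979). Those most like PRDX1 were CTHRC1 and KIF20B (both 0.988) and UCP2 (0.985). With 8 points and so many genes compared, high values are bound to be found, and they are a description only.

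The enzymes depend on other proteins for metal, electrons and repair, and 37 genes of these systems were listed, of which 32 were well above background on all 24 arrays. With 100 nM on day 8, 1 rose and 3 fell, or 10.8% against 9.48% of all genes, and the median log2 fold change was 0.03. The gene that rose was CCS, the chaperone that delivers copper to SOD1, by 0.38 (SE 0.116, limma adjusted p = 0.049). This call was just under the threshold, and calls on the listed genes were not examined under other processing or with arrays left out. TXNIP, the protein that binds and inhibits thioredoxin, went from a mean of 12.38 to 9.81, and fell by 2.57 (SE 0.153, adjusted p = 9.8e-09), and no enzyme or other listed gene changed as much in this comparison. SESN2, a sestrin of the stress response, fell by 0.55 (adjusted p = 0.0013), and GLRX, the cytosolic glutaredoxin, by 0.58 (0.0018). TXN, the thioredoxin that reduces most peroxiredoxins, was at 13.54 against 13.26 (log2 fold change 0.29, adjusted p = 0.074) and SRXN1, which repairs overoxidized peroxiredoxins, at 9.83 against 9.68 (0.15, 0.32). Of 8 glutathione peroxidases, 3 genes of glutathione synthesis, 5 of NADPH supply and 5 regulators, 0 passed. NFE2L2, the transcription factor of the antioxidant response, was well above background on 0 of 24 arrays, so that its level was not measured here.

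With 50 nM for 24 h, 1 rose and 3 fell (10.8%, against 8.02% of all genes). After 12 h, 0 rose and 3 fell (8.11%, against 5.52%). The gene that rose after 50 nM for 24 h was TXN, with a log2 fold change of 0.32. CCS did not pass at 50 nM, with 0.18 after 24 h and 0.17 after 12 h. On day 15, 0 of the 37 passed with any exposure, where 0% of all genes did. TXNIP on day 15 had a log2 fold change of -0.14 with 100 nM (adjusted p = 0.86), and its response differed between the days by 2.43 (SE 0.216, adjusted p = 7.8e-06).

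Between the days in DMSO, 2 of the 37 rose and 12 fell, or 37.8% against 23.2% of all genes. All genes include more dim ones than the list does. Among the 15595 genes kept by a filter on spots well above background, 5582 passed, and no excess of the listed genes was tested. Their median log2 fold change was -0.12. SRXN1 rose by 0.58 (adjusted p = 1.8e-05). CCS fell by 0.82 (3.5e-05), while SOD1, which it loads with copper, rose. IDH2, a mitochondrial source of NADPH, fell by 0.53 (4.7e-04). SESN3 fell by 0.74 (8.8e-04), the thioredoxin reductase TXNRD3 by 0.49 (0.013) and the regulator FOXO3 by 0.25 (0.027). PPARGC1A, a regulator of mitochondrial genes, rose by 0.65 (0.033), and GCLC, which makes the first step of glutathione synthesis, fell by 0.37 (0.037). GPX7, a peroxidase of the endoplasmic reticulum, fell by 0.66 (0.0062) and the cytosolic GPX1 by 0.34 (0.044). GPX8 was lower on day 15 (2.5e-07), where it was well above background on 1 of 3 arrays, and no fold is given.

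**Figure D5:**
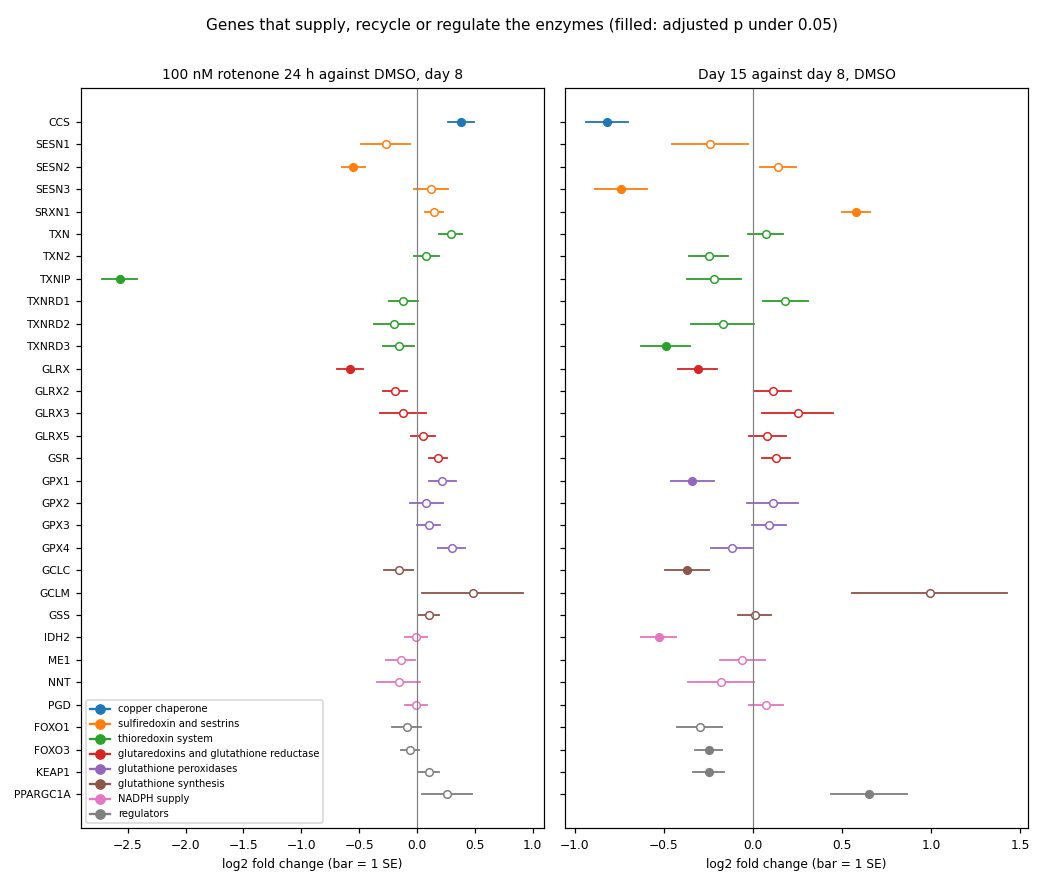
Log2 fold change of the listed genes measured on all arrays, apart from 1 that is not shown, with 100 nM on day 8 on the left and between the days in DMSO on the right. Points are limma estimates, bars 1 SE, filled points passed an adjusted p of 0.05, and colors mark the role. TXNIP at -2.57 stands apart on the left, where CCS is the filled point above 0.

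The cell type markers also moved. On day 8 the summed normalized signal of the 6 neuronal markers lay between 102000 and 122000 in DMSO, between 87400 and 94400 with 100 nM, between 84300 and 93000 with 50 nM for 24 h and between 89000 and 108000 after 12 h. With 100 nM, 2 of the 6 passed (MAP2 and SNAP25, lower by 0.57 and 0.30), where 9.48% of all genes did, and of 6 markers of cycling progenitors 0 passed. Between the days in DMSO, 4 of 6 markers of cycling progenitors fell, 3 of 7 dopaminergic markers rose and 2 fell, where 23.2% of all genes passed. TH fell by 2.94. The summed signal of the dopaminergic markers went from between 6800 and 7600 to between 13100 and 14400, and that of the progenitor markers from between 1600 and 1930 to between 1830 and 2320. OLIG1 fell by 5.16, while MBP (mean log2 signal 5.50 and 5.60) and MOG (5.18 and 5.55), the other oligodendrocyte markers tested, did not pass. The summed signal of these markers, most of it OLIG1 on day 8, went from between 5920 and 6440 to between 232 and 325. The part of these shifts in the changes of the antioxidant enzymes was not tested.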

How the data were processed

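RNA from 24 samples was hybridized to single-color Agilent human 8x60K arrays, and the deposited scanner files hold each spot's brightness as intensity, extracted with Feature Extraction 11.5.1.1 or, on slide 2, 12.0.0.7 per the file headers. Following the study's methods, the median signal was corrected with normexp (offset 0, background median), quantile normalized over all arrays, and filtered to spots that exceeded, on 3 or more arrays, 1.1 times the negative controls' 95th percentile. Slide 1 was aligned with slides 2 and 3 by parametric ComBat with the 8 groups as covariates, which the residual degrees of freedom do not count, so that p values are slightly too small. Control spots were left out, spots with an outlier flag were set to missing, and spots were averaged to probes and probes to 21240 genes by the unversioned accession in the files, matched to RefSeq (GRCh38.p14). Of 50599 distinct probes, 30275 had a gene name. The authors' deposited table of log2 values, in which each column correlated best with its own array, served as an alternative. Its log2 scale was taken from the range of the values, and its columns had medians near 6.6.

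One limma fit (limma 3.58.1, R 4.3.3) with 8 group means gave all contrasts, two-sided, with Benjamini-Hochberg adjustment over all genes. The code was tested on simulated data. Replicate numbers are slide numbers, so that the numbers pair the samples by slide. Before the correction of slide 1, deviations from the group mean correlated between samples with the same number in all 84 pairs of samples (lowest r = 0.17, median 0.46). For different numbers the median was -0.35. The batch shift of slide 1 can be part of this, and the correlation was not computed after its correction. The slide as a block was an alternative. Other alternatives changed the offset, scaling, batch correction, filter, flags, probe rule and samples, and left out each array in turn.

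The enzymes, the 37 genes of related systems and the marker lists were chosen with earlier results of these data known. All 10 enzymes are named. Of the related genes, those that passed with 100 nM on day 8 or between the days in DMSO are named, up to 12 by smallest p, apart from 1 gene that is not reported here, and TXN, NFE2L2 and SRXN1 at 100 nM were added for their role. For PRDX1 and PRDX6 the 3 genes most alike are named. The comparisons between days within rotenone exposures, and the change of the 50 nM responses, were added after values were seen. The number of arrays limits the precision. Figures were drawn with matplotlib 3.10.9.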

Additional observations from a re-analysis of the deposited data

Results flagged for a closer look

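Among the 10 enzymes no response to rotenone passed the test of a difference between day 8 and day 15. By the limma interaction term adjusted over all genes, 2 of the 37 related genes passed with 100 nM, TXNIP and GLRX, against 2.44% of all genes. TXNIP had log2 fold changes of -2.57 on day 8 and -0.14 on day 15 with 100 nM, and the response on day 15 minus that on day 8 was 2.43 (adjusted p = 7.8e-06). With 50 nM for 24 h the same difference for TXNIP was 2.31 (-2.33 and -0.03, adjusted p = 2.6e-05), and with 50 nM for 12 h it was 2.66 (-2.62 and 0.04, adjusted p = 1.8e-06). GLRX differed by 0.66 with 100 nM (-0.58 and 0.08, adjusted p = 0.027), while its differences of 0.56 with 50 nM for 24 h (adjusted p = 0.068) and 0.64 with 50 nM for 12 h (adjusted p = 0.055) missed the threshold. SESN2 differed by 0.56 with 50 nM for 24 h (-0.49 and 0.07, adjusted p = 0.042) and by 0.68 with 50 nM for 12 h (-0.77 and -0.10, adjusted p = 0.026), while with 100 nM its difference of 0.53 missed the threshold (adjusted p = 0.052). The 3 exposures share their DMSO arrays, and the tests with 50 nM were added after values had been seen.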

How the results depend on the processing

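Over 2517 fits of single enzymes under an alternative, 86 lost a call, 35 gained one and 0 called values changed sign. Of the rest, 2324 kept their call or, where not called, moved by at most the residual SD, and 72 uncalled values moved further, PRDX6 between the days with 50 nM for 24 h from 0.08 to -0.09 when scaled to the 75th percentile. The cause of a change was not tested. The count of enzymes called with 100 nM on day 8, 1 in the report, was 2 with an offset of 50 (PRDX4 and PRDX6), 2 with a filter on spots well above background and 2 with the authors' values (PRDX2 and PRDX6), and it was 0 without batch correction, with slides 2 and 3 only, with the brightest probe and with only the arrays compared (0 to 1 leaving out 1 array). With 50 nM for 24 h it was 3, and 4 with an offset of 50 and with the brightest probe (PRDX1 added), and it was 0 without batch correction, with slides 2 and 3 only and with only the arrays compared, and 1 with ComBat that ignores the groups (0 to 2 leaving out 1 array). After 50 nM for 12 h it was 0, and 1 (SOD1) with an offset of 50 or the filter on spots well above background. For 24 h against 12 h it was 0, and 1 (PRDX1) with an offset of 50, both scalings to the 75th percentile, the replicate block, that filter, the brightest probe and the authors' values (0 to 1 leaving out 1 array). Between the days in DMSO it was 4, and 2 without batch correction, 1 with slides 2 and 3 only, where the 4 calls were lost and SOD3 passed (adjusted p = 0.027), and 2 with only the arrays compared (2 to 3 leaving out 1 array). Between the days with 100 nM it was 4, and 2 without batch correction or with slides 2 and 3 only (3 to 4 leaving out 1 array). With 50 nM for 12 h it was 3, and 5 with an offset of 50, and 1 without batch correction, with slides 2 and 3 only and with only the arrays compared (2 to 3 leaving out 1 array). After 50 nM for 24 h it was 3 (3 to 4 leaving out 1 array).

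With the slide as a replicate block, PRDX4 with 50 nM for 24 h on day 8 (adjusted p = 0.053) and PRDX6 between the days with 100 nM (0.058) lost their calls, PRDX1 for 24 h against 12 h (0.42, adjusted p = 0.050) and PRDX2 between the days with 50 nM for 12 h (-0.36, 0.028) gained one, and no other call on an enzyme changed. SOD3 lay near background on most arrays, which limits what can be said of it. The authors' values covered 9 of the 10 enzymes. PRDX4 was not among them, so that counts with these values leave it out.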
